A study of Mus musculus with 2 samples.

Results

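The proteasome subunit genes were described in RNA of mouse leukemia stem cells. Members were chosen by symbol alone: protein-coding genes named Psma, Psmb, Psmc, Psmd or Psme with a number, leaving out the inducible subunits Psmb8, Psmb9 and Psmb10. This gave 40 genes of 21474 protein-coding rows, 16 of the core particle, 17 of the regulatory particle, 3 assembly chaperones of the regulatory base and 4 activators. Per the labels the cells carried Friend virus, which is an erythroleukemia retrovirus of mice, and the surface markers CD34, CD133, Kit and Sca1. They came from adult mice aged 10 to 12 weeks, males and females pooled, of strains with the sensitive allele of Fv2. There was 1 group with 2 biological replicates of 23575315 and 22541765 expected counts (replicates 1 and 2), so no condition was compared. The labels give different biosamples but the same donor record, so the spread between the replicates may be partly technical. Transcripts of the labelled markers were scarce: Kit (1.81 and 1.06 TPM, a transcript level scaled by length and depth), Ly6a, which encodes Sca1 (1.45 and 2.15 TPM), and Cd34 (1.80 and 0.27 TPM) were low in both replicates, and Prom1, which encodes CD133, had 3 counts in replicate 1 and 0 in replicate 2.

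The proteasome degrades proteins tagged with ubiquitin. Its core particle is a barrel of outer alpha rings, which gate the channel, and inner beta rings, which hold the proteolytic sites, each ring being built of one copy of each of its subunits. The regulatory particle caps the barrel: a ring of ATPases in its base unfolds the substrate, and its lid removes ubiquitin. In cells short of proteasome activity, the transcription factor NRF1 (Nfe2l1) is known to raise transcription of subunit genes through antioxidant response elements. Levels below are the deposited TPM, which are relative to transcript length, and the gene positions are on mm10.

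Most of the proteasome genes were well represented, but genes for subunits of the same ring differed in level by an order of magnitude or more. Of the 40 genes, 33 (82.5%) had at least 1 TPM in both libraries, against 41.6% of all protein-coding genes. A mean of at least 10 TPM was reached by 26 (65%), against 25.4% of all genes, and a mean of at least 100 TPM by 4 (10%), against 5.62% of all genes. The 40 genes together made up a share of TPM of 0.207% in replicate 1, against 0.145% in replicate 2. Their median mean level was 16.1 ± 7.33 TPM (SD of the 2 libraries' medians, n = 2). Without the tissue-restricted Psma8 and Psmb11 it was 22.3 TPM, against 15.4 TPM for the 8942 protein-coding genes detected in both libraries. The remaining 38 proteasome genes had no minimum level, so these medians are not like for like. Because RNA was taken from bulk cells, fewer cells expressing a gene and less RNA per cell cannot be told apart.

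**Figure D1:**
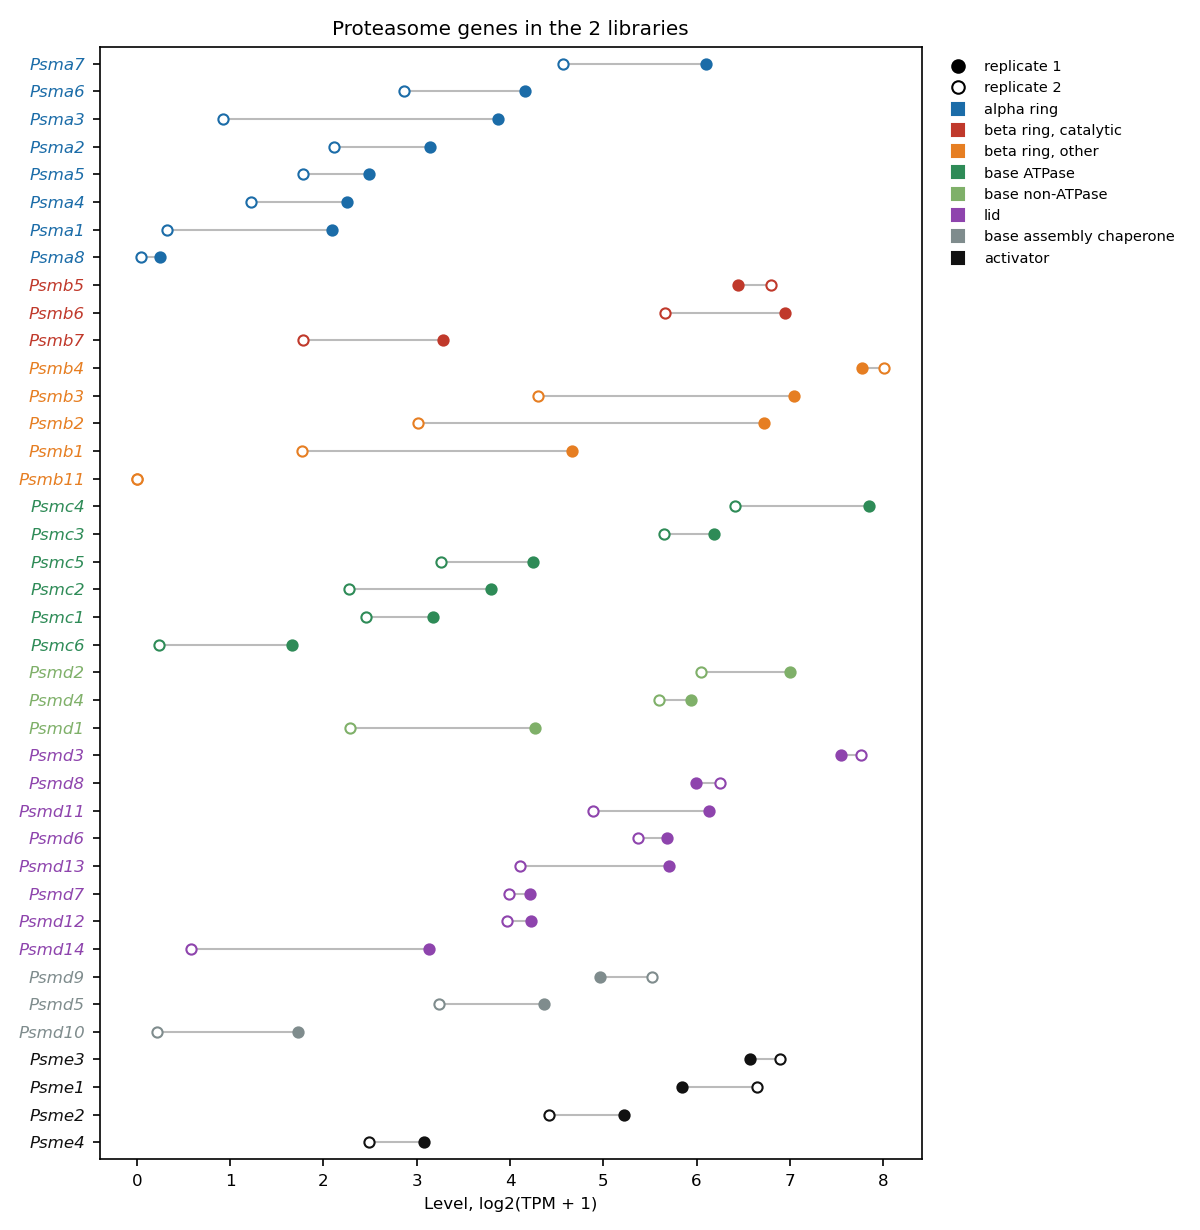
Levels of the 40 proteasome genes, as log2(TPM + 1) on the horizontal axis, with filled points for replicate 1, open points for replicate 2 and 1 row per gene, grouped and coloured by particle. The alpha ring genes other than Psma7 sit low and most beta ring genes high in replicate 1, while Psma3, Psmb1, Psmb2, Psmb3 and Psmd14 have long lines because they are much lower in replicate 2.

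The alpha ring genes had the lowest levels of the core particle as a group. The 7 standard genes had a median mean level of 5.56 TPM, from 1.76 TPM (Psma1) to 45.2 TPM (Psma7). Psma7 (ENSMUSG00000027566.10, chromosome 2, 180036374 to 180042433), which encodes the alpha4 subunit, had 67.6 TPM in replicate 1 and 22.8 TPM in replicate 2. Psma1 (ENSMUSG00000030751.13, chromosome 7, 114264606 to 114276118), the alpha6 subunit, had a level of 3.27 TPM (69 counts) in replicate 1 and 0.25 TPM (4 counts) in replicate 2. The highest and lowest genes of this ring were thus 20.7-fold apart in replicate 1 and 91.2-fold apart in replicate 2. Psma3, the alpha7 subunit, also fell under 1 TPM in 1 library, with 13.6 TPM in replicate 1 and 0.89 TPM in replicate 2. The remaining alpha ring genes were Psma6 (16.9 and 6.25 TPM), Psma2 (7.80 and 3.32 TPM), Psma5 (4.62 and 2.43 TPM) and Psma4 (3.77 and 1.34 TPM), and all 7 were lower in replicate 2. Psma8, a form of the alpha4 subunit made in the testis, was nearly absent, with 6 counts (0.19 TPM) in replicate 1 and 1 count (0.03 TPM) in replicate 2.

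The 7 standard beta ring genes had a median mean level of 74.9 TPM. The catalytic subunits were uneven. Psmb5 (ENSMUSG00000022193.6, chromosome 14, 54614119 to 54618022), which carries the chymotrypsin-like site and is the main target of bortezomib, had 86.1 TPM in replicate 1 and 110 TPM in replicate 2. Psmb6 (ENSMUSG00000018286.6, chromosome 11, 70525367 to 70527858), the caspase-like subunit, had 122 and 49.5 TPM. Psmb7 (ENSMUSG00000026750.5, chromosome 2, 38588036 to 38644087), the trypsin-like subunit, had only 8.69 and 2.44 TPM. Psmb5 and Psmb6 changed order between the libraries, whereas Psmb7 lay far below both in each.

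Of the beta subunits without a catalytic site, Psmb4 (ENSMUSG00000005779.8, chromosome 3, 94884093 to 94886961), the beta7 subunit, had the highest mean level of all 40 genes, with 218 TPM in replicate 1 and 257 TPM in replicate 2. Psmb3 had 131 and 18.7 TPM, Psmb2 had 105 and 7.08 TPM, and Psmb1 had 24.4 and 2.42 TPM. These 3 genes were far lower in replicate 2, while Psmb4 was similar in both. Within the beta ring the highest and lowest genes were 25.1-fold apart in replicate 1 (Psmb4 and Psmb7) and 106-fold apart in replicate 2 (Psmb4 and Psmb1). Psmb11, the beta5 form of the thymic cortex, had 0 counts in both libraries, which allows levels of up to 0.04 TPM (3 counts, counting error only).

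The standard subunits Psmb5, Psmb6 and Psmb7 have counterparts that replace them in the immunoproteasome. Psmb8, which replaces Psmb5, had 79.1 and 116 TPM, close to the 86.1 and 110 TPM of Psmb5. Psmb9, which replaces Psmb6, had 24.7 and 11.5 TPM, below the 122 and 49.5 TPM of Psmb6. Psmb10, which replaces Psmb7, had 51.7 and 49.7 TPM, above the 8.69 and 2.44 TPM of Psmb7. The order within each of these last 2 pairs was the same in both libraries.

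The 6 ATPase genes of the base had a median mean level of 10.8 TPM and the widest range of any ring. Psmc4 (ENSMUSG00000030603.11, chromosome 7, 28041707 to 28050101) had 230 TPM in replicate 1 and 84.0 TPM in replicate 2. Psmc6 (ENSMUSG00000021832.7, chromosome 14, 45329788 to 45349705) had a level of 2.16 TPM (61 counts) in replicate 1 and 0.18 TPM (5 counts) in replicate 2. These 2 genes were 106-fold apart in replicate 1 and 466-fold apart in replicate 2. Between them lay Psmc3 (72.1 and 49.1 TPM), Psmc5 (18.04 and 8.61 TPM), Psmc2 (12.9 and 3.84 TPM) and Psmc1 (8.04 and 4.50 TPM), all lower in replicate 2.

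All 6 ATPases bind ATP through a Walker A motif. Its codons are in capitals in the coding stretches below (GENCODE M21 transcripts on GRCm38, the assembly also called mm10), which are shown because they are a shared element of genes whose levels lay so far apart. The stretches of Psmc1, Psmc5 and Psmc6 are spliced across an intron, so their positions give the first and last base.
Psmc4, chr7:28047002-28047061, minus strand: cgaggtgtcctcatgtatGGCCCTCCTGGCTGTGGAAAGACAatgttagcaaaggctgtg
Psmc3, chr2:91056727-91056786, plus strand: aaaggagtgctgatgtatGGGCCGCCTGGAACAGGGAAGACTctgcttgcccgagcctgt
Psmc5, chr11:106261708-106261962, plus strand: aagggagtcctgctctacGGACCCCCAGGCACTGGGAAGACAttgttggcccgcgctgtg
Psmc2, chr5:21801244-21801303, plus strand: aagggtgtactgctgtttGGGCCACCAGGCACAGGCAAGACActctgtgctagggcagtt
Psmc1, chr12:100116762-100119098, plus strand: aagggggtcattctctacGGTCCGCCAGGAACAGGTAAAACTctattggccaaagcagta
Psmc6, chr14:45337538-45340661, plus strand: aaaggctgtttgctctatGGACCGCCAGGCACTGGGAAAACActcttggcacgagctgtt
The stretches of Psmc4 and Psmc6 both had 53.3% G and C, although their longest coding transcripts in GENCODE M21 had 53.5% (Psmc4) and 37.0% (Psmc6).

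Of the other base subunits, Psmd2, the scaffold Rpn1, had 127 and 65.1 TPM. Psmd4, the ubiquitin receptor Rpn10, had 60.2 and 47.4 TPM. Psmd1, the scaffold Rpn2, had 18.2 and 3.86 TPM. Psmd2 and Psmd1 are the large scaffolds of the same base and lay 8.72-fold apart in mean level.

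The lid genes chosen by symbol, which leave out Sem1, were higher as a group, with a median mean level of 39.6 TPM over 8 genes. Psmd3 (ENSMUSG00000017221.10, chromosome 11, 98682554 to 98695979), the subunit Rpn3, had 186 TPM in replicate 1 and 216 TPM in replicate 2. Psmd14 (ENSMUSG00000026914.11, chromosome 2, 61711694 to 61800376), the metalloprotease Rpn11 that cuts ubiquitin from substrates, had 7.78 TPM (164 counts) in replicate 1 and 0.49 TPM (8 counts) in replicate 2. The gene of this enzyme was thus 23.9-fold and 441-fold below Psmd3 in replicates 1 and 2. The other lid genes were Psmd8 (62.6 and 74.9 TPM), Psmd11 (68.97 and 28.5 TPM), Psmd6 (50.4 and 40.6 TPM), Psmd13 (51.0 and 16.2 TPM), Psmd7 (17.5 and 14.9 TPM) and Psmd12 (17.6 and 14.6 TPM). Psmd3 and Psmd8 were higher in replicate 2 and the other 6 were lower there on the TPM scale.

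Assembly chaperones of the base hold ATPase modules before the particle closes. Psmd9 had 30.2 and 44.9 TPM, Psmd5 had 19.6 and 8.47 TPM, and Psmd10, also known as gankyrin, had 2.31 TPM from 59 counts in replicate 1 and 0.16 TPM from 4 counts in replicate 2. Psmd10 was the lowest of them in both libraries. The activators open the core without ATP, and their genes had a median mean level of 53.2 TPM. Psme3, the nuclear gamma subunit of the 11S activator, had 94.2 and 118 TPM. Psme1 and Psme2, the interferon-inducible alpha and beta subunits that form a joint ring, had 56.5 and 99.6 TPM (Psme1) and 36.5 and 20.4 TPM (Psme2). Psme1 lay above its partner in both libraries. Psme4, the large activator also called PA200, had 7.43 and 4.62 TPM.

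The spread of the proteasome genes around their centre was set beside that of other gene sets. The SD of log2(TPM + 1) over the 38 genes without Psma8 and Psmb11 was 1.90 for the mean level, 1.77 in replicate 1 and 2.23 in replicate 2. It was 2.06 over the 8942 protein-coding genes detected in both libraries, and 2.44 over all 21474 protein-coding genes. The 38 genes had no minimum level, and 33 of them are among the 8942 genes. The SDs of 1.90 and 2.06 are therefore not like for like. Of 2 other complexes with fixed subunit ratios, the COP9 signalosome, a relative of the lid, had 1.30 (10 genes) and the CCT chaperonin 2.02 (7 genes). The CCT set lacks Cct6a, which was not found by symbol. It also holds Cct4, with a mean of 845 TPM against 40.1 TPM for the next highest gene, Cct8. These numbers are descriptions of 2 libraries and were not tested against each other.

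Levels moved with base composition. Over the 38 genes the level, as log2(TPM + 1), and the GC content of the longest coding transcript had a Spearman correlation of 0.81, against 0.31 over the 9881 protein-coding genes with a mean of at least 1 TPM and a GC value. The points share both libraries and one annotation. The correlation was 0.85 over the 14 core genes, 0.75 over the 17 regulatory genes, 0.31 over the 10 COP9 genes and -0.43 over the 7 CCT genes. Pearson correlations were 0.78 (core), 0.82 (regulatory), 0.63 (COP9) and -0.41 (CCT), so the COP9 value depends on the measure. With the GC content of the coding sequence, the Spearman correlation was 0.74 over the 38 genes, against 0.26 over all genes with the same minimum. With transcript length the proteasome genes had a correlation of -0.13.

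In GC classes, the 8 proteasome genes under 45% GC (Psma1, Psma2, Psma3, Psma4, Psmc6, Psmd10, Psmd14 and Psme4) had a median mean level of 3.34 TPM and none exceeded 7.24 TPM, while all genes of that class with a mean of at least 1 TPM had a median of 6.15 TPM. The 13 genes between 45% and 50% had 13.4 TPM against 8.39 TPM for the genes of that class with the same minimum. The 13 genes between 50% and 55% had 55.8 TPM against 14.6 TPM. The 4 genes at 55% or more (Psmb5, Psmb6, Psmc3 and Psmd3) had 92.0 TPM against 29.0 TPM. Proteasome genes therefore lay below the median of genes with a mean of at least 1 TPM in the lowest class and above it in the other 3. The median GC content was 45% for the alpha ring and 52.2% for the beta ring, which is the order of their levels. GC content is that of the longest M21 transcript, which can be longer than the transcript counted. Examples are Psma2 (2911 against 944 bases, 48.1% GC in its coding sequence) and Psmc6 (2234 against 1564 bases, 41.8%). The part of base composition in these levels was not tested.

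**Figure D2:**
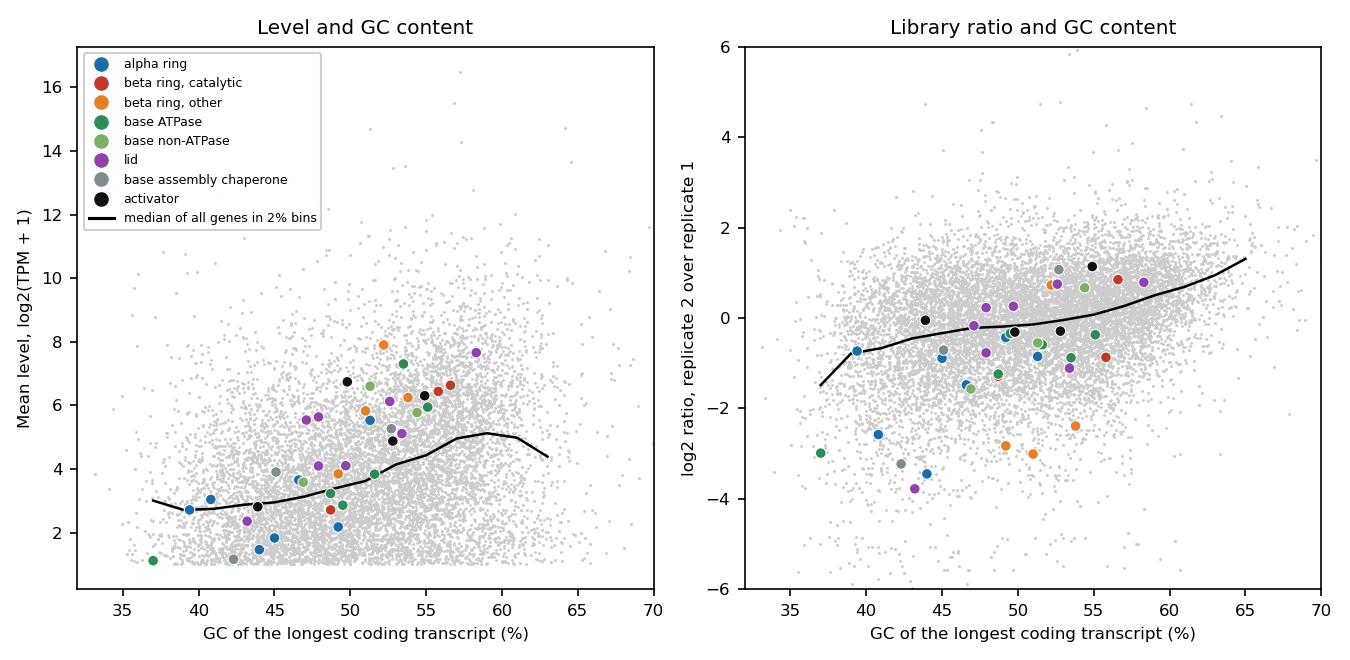
GC content of the longest coding transcript (%) against the mean level as log2(TPM + 1) on the left and against the log2 ratio of replicate 2 over replicate 1 on the right, with 38 proteasome genes coloured by particle, other protein-coding genes in grey and the median of all genes in bins of 2% as a black line. On the left the proteasome genes climb more steeply than the line, and on the right most of them lie below it.

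The libraries were then compared gene by gene. Rounded expected counts were scaled by TMM, and a gene was called apart where the exact 95% counting interval of its ratio lay wholly beyond 2-fold. The interval covers counting error only, and with 1 group no p-value was computed. All 38 proteasome genes other than Psma8 and Psmb11 had the 20 counts needed. Of these, 10 (against 14.5% of all genes) were apart toward replicate 1 and 1 (against 8.84% of all genes) toward replicate 2. The median log2 ratio of replicate 2 over replicate 1 was -0.72 for the proteasome genes and -0.04 for all 11708 genes tested, and 29 of the 38 had a ratio below 0, against 51.4% of all genes.

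The 10 genes higher in replicate 1 came from the alpha ring, the beta ring, the base, the lid and the chaperones. Psmd14 had 164 counts in replicate 1 and 8 in replicate 2, a log2 ratio of -3.78 (interval -5.10 to -2.85). Psma1 had 69 and 4 counts (log2 ratio -3.45), Psmd10 had 59 and 4 counts (-3.23) and Psmc6 had 61 and 5 counts (-2.99). These 4 genes had few counts, so their ratios are wide. Psmb2 had 1150 and 101 counts, a log2 ratio of -3.01 (interval -3.32 to -2.72). Psmb1 had 435 and 43 counts (log2 ratio -2.83), and Psmb3 had 1712 and 231 counts (-2.39). These beta subunits rest on more counts, and their intervals were narrower. Psma3 (log2 ratio -2.58), Psmd1 (-1.57) and Psma6 (-1.48) completed the set. Psme1 was the gene higher in replicate 2, with 1135 counts in replicate 1 and 1771 in replicate 2, a log2 ratio of 1.14 (interval 1.03 to 1.25).

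**Figure D3:**
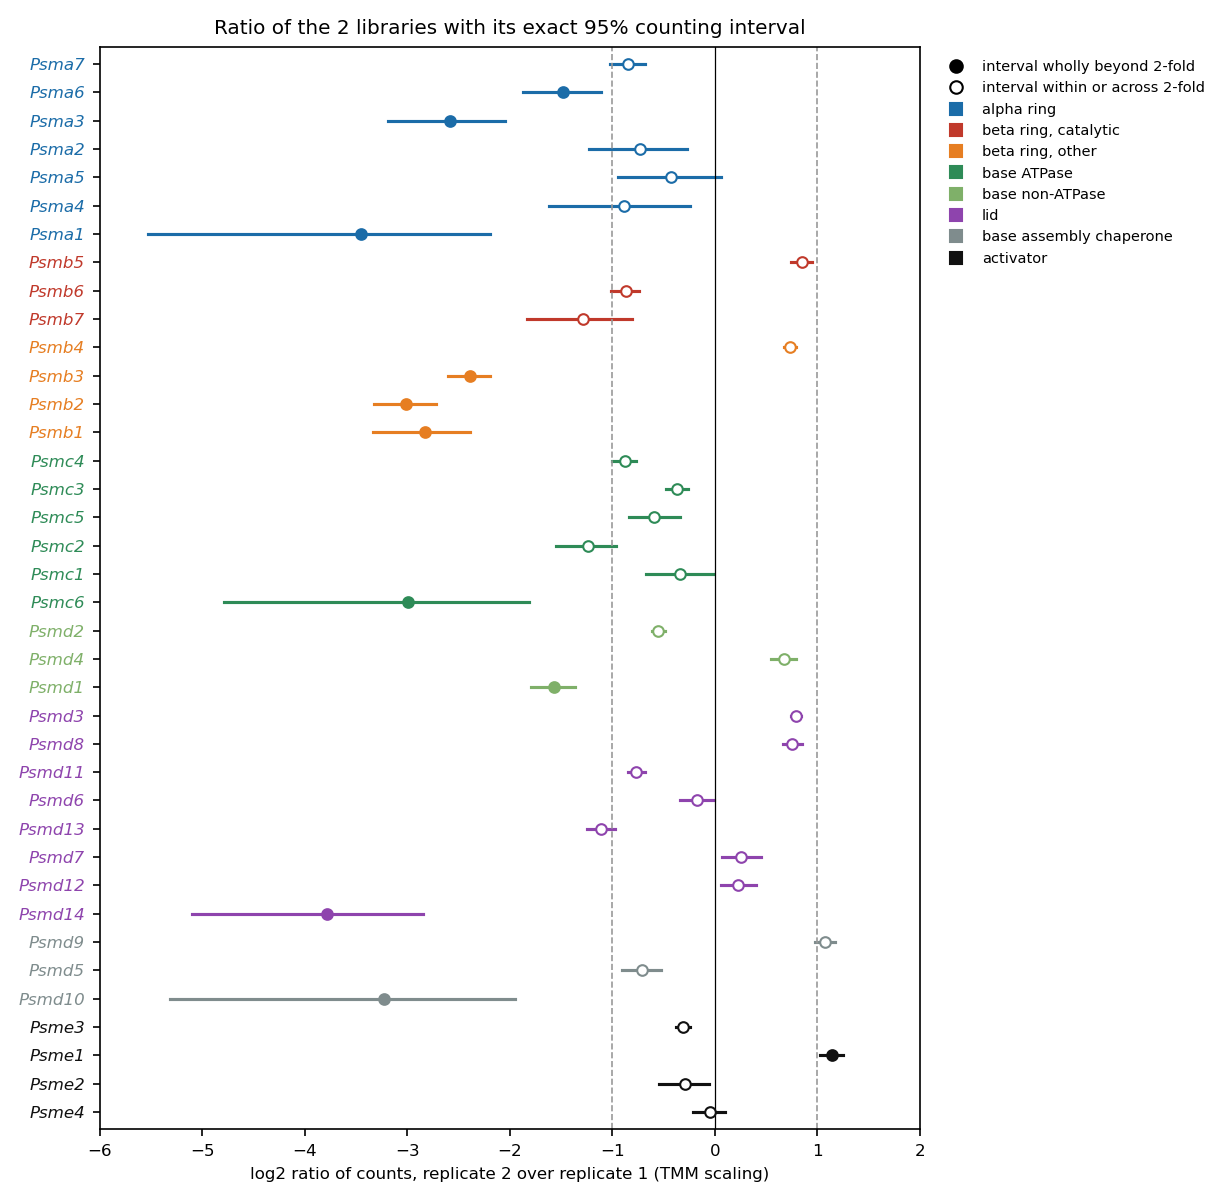
Log2 ratio of counts, replicate 2 over replicate 1 after TMM scaling, for 38 proteasome genes, with bars for the exact 95% counting interval, dashed lines at 2-fold and filled points where the interval lies wholly beyond them. 10 filled points lie left of the dashed lines and 1, Psme1, lies right of them.

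By particle, all 7 standard alpha ring genes and all 6 ATPase genes had ratios below 0, with medians of -0.89 and -0.73. The 4 noncatalytic beta genes had a median of -2.61 although Psmb4 had 0.73. The 8 lid genes chosen by symbol were evenly split, with 4 below and 4 above 0 and a median of 0.03. Sem1, a lid subunit that the choice by symbol left out, had -2.80. None of the 3 catalytic genes was apart by whole-gene counts, with log2 ratios of 0.85 (Psmb5), -0.87 (Psmb6) and -1.29 (Psmb7). By counts of protein-coding transcripts alone, Psmb6 was apart toward replicate 1 (-1.19, interval -1.35 to -1.04). Psmb5 (0.85) and Psmb7 (-1.27) were not.

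The ratio also moved with GC content, with a Spearman correlation of 0.54 over the 38 proteasome genes and 0.32 over 11690 genes tested. After the trend of all genes on GC was subtracted, 8 proteasome genes were apart toward replicate 1 (against 11.8% of all genes) and 1 toward replicate 2 (against 9.13%), and the median was -0.45 against 0.01 for all genes. Psma6, Psmc6 and Psme1 were no longer apart, and Psmd9 was, with a log2 ratio of 1.16. By counts of protein-coding transcripts alone, without that subtraction, Psmd9 had a log2 ratio of 0.61 (interval 0.43 to 0.78) and was not apart. Psmb1 (-2.65), Psmb2 (-2.87), Psmb3 (-2.36) and Psmd14 (-3.31) kept ratios of about the same size. The common coefficient of variation between the libraries was 0.662 for the proteasome genes and 0.537 for all genes.

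Part of the RNA counted to these genes was not coding. By counts, 91.3% (replicate 1) and 88.2% (replicate 2) of proteasome fragments were assigned to protein-coding transcripts, against 84.0% and 78.9% for all protein-coding genes. Retained-intron transcripts took 4.90% and 6.47%, against 9.08% and 12.8% for all genes. Of the 28 genes with more than 1 transcript and at least 1 TPM in both libraries, 25 were led by a protein-coding transcript in their mean share (against 72.1% of all such genes) and 23 were led by the same transcript in each library (against 69.9%).

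The 3 genes led otherwise in both libraries were Psmd6, Psmd9 and Psme2. In single libraries, Psmb2 was led by the processed transcript Psmb2-202 in replicate 1 (54.4% of TPM), and Psma6 by the processed transcript Psma6-203 in replicate 2 (56.9% of TPM). By counts the coding transcript was ahead in both cases. Psmb2-201 had 684.8 counts against 465.2 for Psmb2-202 (547 bases), and Psma6-201 had 48.2 against 26.8 for Psma6-203 (520 bases). The coding transcripts of Psmb2 had 47.7 and 7.08 TPM and a log2 ratio of -2.26, against -3.01 for the whole gene, and both were apart toward replicate 1. The retained-intron transcript Psmd6-203 made up 68.1% of Psmd6 TPM in replicate 1 and 96.6% in replicate 2. The coding transcript Psmd6-201 had 391 counts in replicate 1 and 34.1 in replicate 2. The coding part of this lid gene was thus apart toward replicate 1, with a log2 ratio of -3.01 (interval -3.58 to -2.52). The gene as a whole had -0.17. Transcript counts are an estimated split of a gene's fragments, and intervals on them leave out the error of that split. Psmd9 was led by a processed transcript without a coding sequence, Psmd9-202, at 64.6% and 74.3%. Retained-intron transcripts of Psme2 summed to 71.2% and 71.6% of its TPM. From protein-coding transcripts alone, these genes had 15.9 and 1.39 TPM (Psmd6), 10.7 and 11.5 TPM (Psmd9) and 10.5 and 5.79 TPM (Psme2). Each is thus well under its gene level.

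Transcript choice also bore on the highest ATPase gene. The transcript Psmc4-206, annotated as coding but only 587 bases long, took 78.7% and 75.4% of Psmc4 TPM, against 2.31% and 5.82% for Psmc4-201 of 1440 bases. Psmc4 had 137 and 56.8 on a scale of counts per kilobase of the longest coding transcript, rescaled to the same sum over protein-coding genes in each library, where Psmc3 had 92.6 and 54.7. Psmc4 and Psmc3 were therefore much closer on that scale, while Psmc6 had 2.46 and 0.217. Psme3 was led by Psme3-201, of 2664 bases, in replicate 1 (99.0% of TPM, against 29.5% in replicate 2) and by Psme3-204, of 698 bases, in replicate 2 (70.5%, against 0.79% in replicate 1). Its counts of 4674 in replicate 1 and 2671 in replicate 2 therefore ran opposite to its levels of 94.2 and 118 TPM. Psma6, Psmb2, Psmc3 and Psme2 also had different leading transcripts in the libraries. When counts of protein-coding transcripts alone were compared, 12 of 38 proteasome genes were apart toward replicate 1, against 17.2% of all genes.

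**Figure D4:**
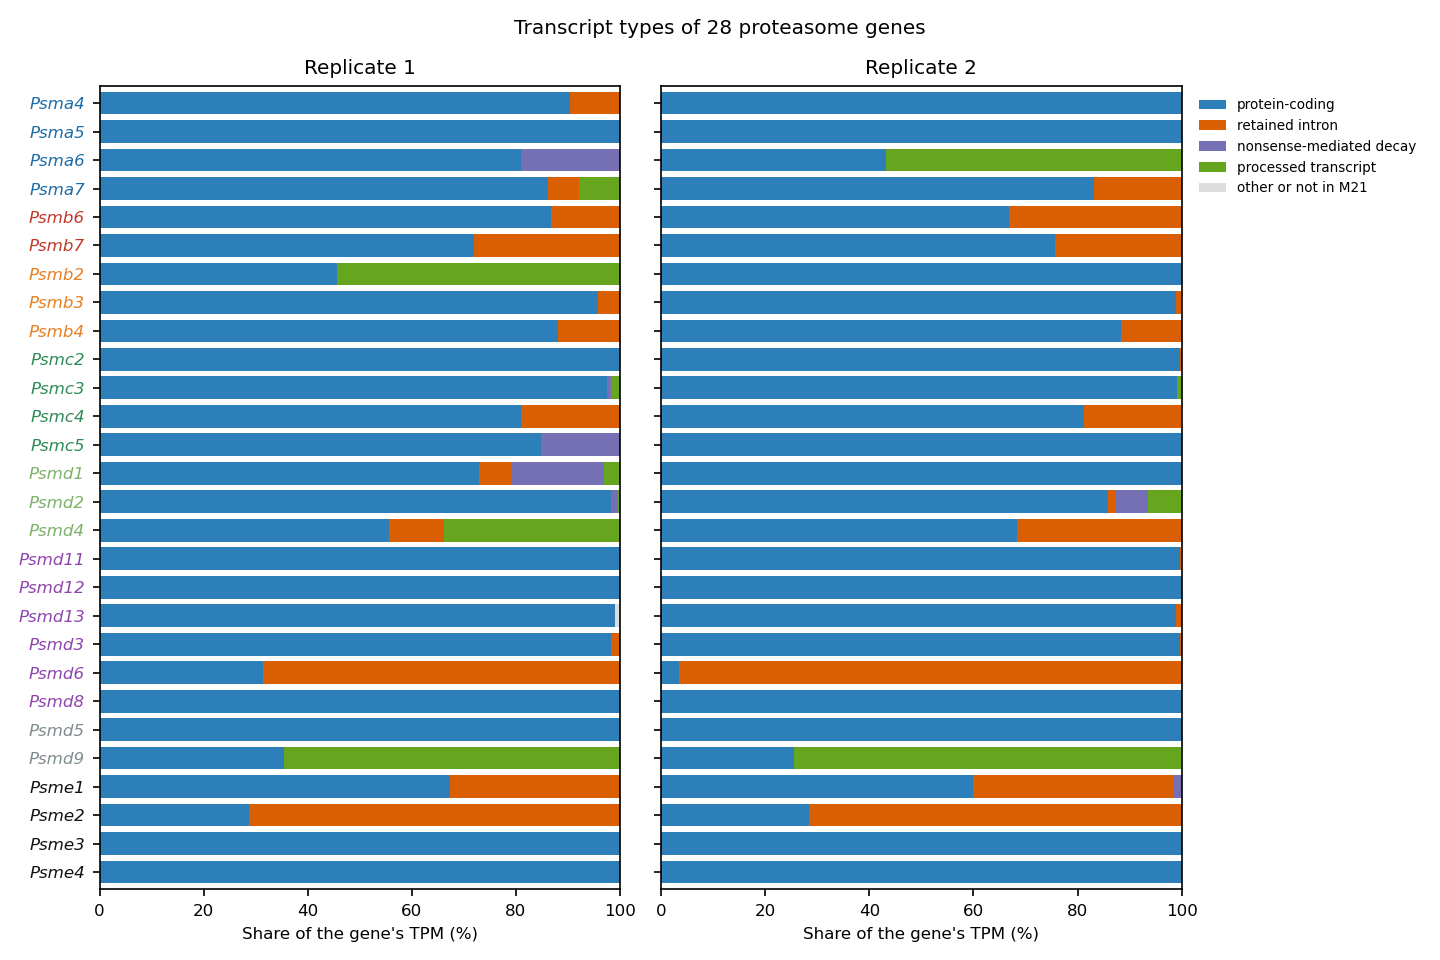
Share of each gene's TPM (%) by annotated transcript type, in replicate 1 on the left and replicate 2 on the right, for the 28 proteasome genes with more than 1 transcript and at least 1 TPM in both libraries. Protein-coding transcripts fill most bars, and Psmd6, Psmd9 and Psme2 are filled mostly by retained-intron or processed transcripts in both libraries.

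Sequence shared with other loci limits some values. Of the 40 genes, 20 shared at least 30 words of 25 bases with an annotated pseudogene. Of the 51 pairs of gene and pseudogene, 30 had a pseudogene row in the tables used here and 21 had no value. Gm13835, which shares 661 words with Psma3, had 2.90 and 0.25 TPM, lower in replicate 2 like Psma3 itself. Thap6, which shares 50 words with Psmd11 and 30 with Psmb11, had 2.81 and 5.41 TPM, higher in replicate 2, and the other pseudogenes with a value were at 0.28 TPM or less in each library. Exonic bases overlapped another gene in 10 of the 40, the most in Psmd9, where the lincRNA Gm26745 on the opposite strand covers 25.5% of them and had 0 TPM in both libraries. In Psmd13 the overlap with Sirt3 was 10.1%, and Sirt3 had 34.9 and 30.5 TPM. Whether the authors' counting used strand is not given in the sources used here, so reads in such overlaps cannot be assigned with certainty.

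Promoter windows from 250 bases before to 50 bases after the annotated start (RefSeq, GRCm38.p6) were available for 33 of the 40 genes. The core of the antioxidant response element, TGACNNNGC on either strand, was found in 6 of them (18.2%), against 14.8% of all 17491 genes. CCAAT on either strand was in 13 (39.4%, against 42.3%) and TATAAA on either strand in 3 (9.09%, against 14.8%). None of the shares for proteasome genes lay far from that of all genes. The matches were in Psmb5, Psmb6, Psmc6, Psmd9, Psmd12 and Psme4, and 3 lay within 100 bases upstream of the start in the forward orientation. Those 100 bases are shown with the match in capitals, since 2 belong to catalytic subunits described above. A match of letters is not evidence of binding.
Psmb5, chr14:54617996-54618095, minus strand: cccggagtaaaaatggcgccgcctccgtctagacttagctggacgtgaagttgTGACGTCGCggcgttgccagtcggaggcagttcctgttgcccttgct
Psmb6, chr11:70525257-70525356, plus strand: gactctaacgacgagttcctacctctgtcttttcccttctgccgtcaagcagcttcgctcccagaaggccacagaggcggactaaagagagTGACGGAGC
Psmd9, chr5:123228090-123228189, plus strand: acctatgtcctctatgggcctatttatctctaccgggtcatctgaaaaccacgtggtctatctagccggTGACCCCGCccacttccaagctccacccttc
The match ended 1 base before the start in Psmb6, 23 bases before it in Psmd9 and 39 bases before it in Psmb5.

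Genes that work with the proteasome were also uneven. Adrm1, the ubiquitin receptor Rpn13, had 734 TPM in replicate 1 and 1405 TPM in replicate 2, above every one of the 40 genes, and was apart toward replicate 2 (log2 ratio 1.43). Of the deubiquitinases bound to the regulatory particle, Usp14 had 99.3 and 4.74 TPM and was apart toward replicate 1 (-3.44), whereas Uchl5 had 23.3 and 39.4 TPM. Sem1, the smallest lid subunit, had 13.9 and 1.40 TPM and was also apart toward replicate 1 (-2.80). Adrm1 has a GC content of 60.3%, Usp14 39.2%, Uchl5 39.2% and Sem1 37.3%. With the GC trend subtracted, Adrm1 had a log2 ratio of 0.80 and was no longer apart, while Usp14 (-2.60) and Sem1 (-1.77) still were. Uchl5, whose longest transcript has the GC content of that of Usp14, had a log2 ratio of 1.11 and was not apart before the subtraction. It was apart toward replicate 2 after it (1.95). In replicate 1, however, Uchl5 had a higher TPM than Psmc2 from fewer counts, although their longest transcripts are similar in length. The Uchl5 RNA counted may thus be from a shorter transcript of other GC content, which leaves its value after the subtraction uncertain.

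Of the core assembly chaperones, Psmg4 (72.3 and 31.9 TPM) and Psmg1 (32.6 and 47.8 TPM) were the most abundant, and Psmg2 was apart toward replicate 1 with 61 and 5 counts (log2 ratio -2.99). Of 7 proteasome regulators, Akirin2, a factor for nuclear import of proteasomes, had 67.9 and 52.9 TPM. Psmf1, the inhibitor also called PI31, had 110 and 7.90 TPM and was the 1 regulator apart toward replicate 1 (-2.85). Of the NRF1 pathway, Syvn1 (292 and 350 TPM), a ubiquitin ligase of the endoplasmic reticulum, and Nfe2l1 itself (90.7 and 33.2 TPM) were the most abundant. By scaled counts Nfe2l1 differed less (4551 and 2489 counts, log2 ratio -0.37, interval -0.45 to -0.30) and was not apart. Ddi2, the protease that activates NRF1, had 18.2 and 3.57 TPM (apart, -1.49). Of the ubiquitin genes, Ubb had 701 and 211 TPM (apart, -1.07) and Rps27a had 65.5 and 15.9 TPM (apart, -1.65). Of 8 shuttle and segregase genes, Rad23b, which carries ubiquitinated proteins to the proteasome, had 705 and 293 TPM, and Ufd1 was apart toward replicate 1 (-2.05). Of the comparison complexes, 4 of 10 COP9 genes and 2 of 7 CCT genes were apart toward replicate 1, and none of either was apart toward replicate 2. Their median log2 ratios were -0.55 (COP9) and -0.45 (CCT).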

How the data were processed

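Polyadenylated RNA of 2 libraries was sequenced with paired ends, per the labels. The deposited tables give, per gene and transcript, the authors' expected counts, TPM (relative to all rows of a table), FPKM and the percent of each transcript in its gene, made on mm10 with GENCODE M4, per the accompanying readme; effective lengths were also deposited. Neither aligner nor quantifier is given in the sources used here. Of 69691 rows, 43346 had an Ensembl identifier and 42462 matched GENCODE M21, which gave symbols, types, GC content and lengths. Expected counts were rounded to whole numbers and scaled by TMM in edgeR 4.0.16 (R 4.3.3) over protein-coding genes with at least 20 counts, with a prior count of 0.5; DESeq2 1.42.0 gave other size factors. The GC trend was a lowess fit over all tested genes (span 0.3). The call of genes apart was checked with simulated counts whose spread between libraries was smaller than that of these data. The check therefore does not show how the call behaves at the spread seen here. The members and gene lists were chosen with earlier results of these data known. Every member is reported. Named with full values were the catalytic subunits, the highest and lowest gene of each particle, activators, chaperones, genes apart and genes under 1 TPM; of the other lists, the 2 most abundant genes and those apart, of which a few are not reported here. Uchl5 and the sort markers were named beyond that rule. A planned description of protein motifs was not run. Python 3.11.15, numpy 2.4.6, pandas 2.3.3, scipy 1.17.1, statsmodels 0.14.6 and matplotlib 3.10.9 were used.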

Additional observations from a re-analysis of the deposited data

How the results depend on the processing

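Of 78 alternatives computed, 53 stayed within the band set for each result and 25 did not. For numbers of genes the band allowed a change of up to 1.5-fold. Genes apart toward replicate 1 numbered 10 of 38 as reported (14.5% of all genes) and 15 with total-count scaling (20.2%), at the edge of that band. They numbered 18 by the ratio of TPM (24.2%), 17 at 1.5-fold (22.6%) and 5 of the 19 genes tested that share no words with a pseudogene (14.5%). Genes apart toward replicate 2 numbered 1 as reported (8.84% of all genes). They numbered 0 at 100 or more counts (8.84%), with total-count scaling (4.42%), by the ratio of TPM (3.94%) and without genes that share words with a pseudogene (8.85%). They numbered 2 with DESeq2 size factors (9.52%) and with the trend on median transcript GC subtracted (9.03%), and 6 at 1.5-fold (18.8%). The median log2 ratio of the proteasome genes was -0.72 as reported, -0.60 at 100 or more counts, -1.03 with total-count scaling, -1.21 by the ratio of TPM and -0.37 without genes that share words with a pseudogene. It was -0.45, -0.36 and -0.42 with the trend on transcript GC, coding GC and median transcript GC subtracted. Total-count scaling and the ratio of TPM also moved the median of all genes to -0.35 and -0.45, in place of -0.04.

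Genes detected numbered 33 of 40, and 20 of 40 at a minimum of 10 TPM. Of the 20 genes that share no words with a pseudogene 17 were detected, and their share of all TPM was 0.106%. The median level was 27.3 as counts per kilobase of the longest coding transcript, on its own scale. The SD of levels was 1.49 with the GC trend subtracted. The coefficient of variation was 0.596 at 100 or more counts, against 0.503 for all genes at that minimum. The stricter antioxidant motif, with an A added at its end, was held by 2 of 33 promoters (6.06%, against 3.13% of all genes). With 1 library left out, genes detected ranged from 33 to 38, the median level from 11.6 to 22.0 TPM, the SD of levels from 1.77 to 2.23, the share of TPM from 0.145% to 0.207%, and genes led by a coding transcript numbered 24 with either library, against 25 as reported. Ratios could not be computed without a replicate. No paired analysis was possible because there was 1 group. The GC, coding-transcript and per-kilobase alternatives were chosen after seeing the data. Psma1, Psmc6, Psmd10 and Psmd14 had under 10 counts in replicate 2, which limits their values there.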
